A study of Homo sapiens with 2 samples.

Results

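A set of nuclear receptor genes beyond the retinoic acid receptors RARA, RARB and RARG and the retinoid X receptors RXRA and RXRB was read in RNA sequencing of HepG2 cells. The set held 35 genes of 60623 in the count tables. It was chosen by name from the receptor superfamily, without a rule on measured values but with earlier results of these data known. PPARA and NR1H4, whose products also pair with RXR, and a few other superfamily genes were not part of it. It comprised 8 receptors grouped as RXR partners (PPARD, PPARG, THRA, THRB, NR1H2, NR1H3, NR1I2 and NR1I3) and 27 others, among them RXRG. The grouping was set in advance by name, and whether any of the others can also pair with RXR was not examined. HepG2 is a human hepatocellular carcinoma cell line, labelled as wild type, and a single tumor-derived line is a limited model of hepatocytes. Both groups carried 1 mM FFA, a mixture of oleic and palmitic acid bound to bovine serum albumin, for 24 h as a model of steatosis. The FFA group received no 9-cis-RA, and cells of the FFA + 9-cis-RA group were given 9-cis-RA at 10 μM for 24 h in addition. This isomer of retinoic acid is a ligand of RXR and RAR. No cells without FFA were analysed here, so every value describes lipid-loaded cells. Each group was 1 library of the same batch.

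Nuclear receptors are transcription factors whose activity is often set by a small lipophilic ligand. PPARs, thyroid hormone receptors, LXRs and the xenobiotic receptors bind DNA together with RXR, and RXR is the partner in these dimers that 9-cis-RA binds. Other members, such as the glucocorticoid receptor, act as homodimers, and orphan members such as NR5A2 and ESRRA can act as monomers or without a known physiological ligand. In liver these proteins set fatty acid oxidation, cholesterol disposal, drug clearance and the daily rhythm of metabolism.

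The FFA library held 60821539 fragments counted on genes and the FFA + 9-cis-RA library held 57669670. Of these, the 35 receptors took 0.0903% and 0.0913%. Every log2 fold change below is FFA + 9-cis-RA against FFA, from counts scaled by size factors with a pseudocount of 1, for genes whose counts in the 2 libraries summed to at least 10. Without replicates no p-value can be given. The 95% intervals cover counting error only and compare these 2 libraries. A difference between the cultures and an effect of 9-cis-RA cannot be told apart, nor can fewer cells of a kind and less RNA per cell. As a check of the label, CYP26A1, a retinoic acid hydroxylase gene, had 4 counts in FFA and 709 in FFA + 9-cis-RA. The 8 hepatocyte markers examined were all detected, with 341 to 294592 counts in FFA and 278 to 296345 in FFA + 9-cis-RA, and their sums were 1172966 and 962383. Of the 8 markers of other liver cells, PTPRC had 0 counts in both libraries and COL1A1 had 1 and 2, while ACTA2 had 1186 and 773 and EPCAM, an epithelial gene that HepG2 expresses, had 9584 and 7891. CD68 had 5 and 15 counts, PECAM1 52 and 29, VWF 184 and 118 and DES 16 and 14. Another annotated gene on the same strand shares 81.6% of the exonic sequence of CD68 and 13.5% of that of ACTA2. Fragments there went uncounted, so the low CD68 count says little about immune cells. The summed level of these 8 markers, most of it EPCAM, was 11028 counts in FFA and 8842 in FFA + 9-cis-RA, and their part in the results was not tested.

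Of the 35 receptor genes, 27 had enough counts to compare, 3 fell under the minimum and 5 had 0 counts in both libraries. No member passed a log2 fold change of 1 in either direction, where 3.37% of all 20431 genes compared lay above 1 and 4.9% lay below -1. NR4A3 was at the edge, at 0.996. At the lower threshold of 0.5, 2 of 27 members (7.41%) were higher, NR4A2 and NR4A3, beside 9.03% of all genes. Another 3 members (11.1%) lay below -0.5, namely NR2F1, RXRG and ESR1, beside 14.3% of all genes. With total-count scaling 4 members lay above 0.5, and with a pseudocount of 5 only 1 lay below -0.5. Among the 24 members with at least 50 counts, 2 (8.33%) lay above 0.5 beside 4.64% of all such genes, and 1 (4.17%), NR2F1, lay below -0.5 beside 9.31%. The counting interval lay above 0 for 9 members (33.3%) and below 0 for 8 (29.6%), against 22.5% and 25.7% of all genes. These shares depend on the number of counts, and the members were better counted. At least 50 counts were reached by 24 of the 27, beside 15917 of the 20431 genes. The share among all genes with at least 50 counts was not computed. The median log2 fold change of the compared members was -0.026 (0.023 with total-count scaling), close to the -0.020 of all genes (0.029 with that scaling), and their median absolute log2 fold change was 0.28 beside 0.22. Among genes with at least 50 counts the corresponding absolute values were 0.28 and 0.18.

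**Figure D1:**
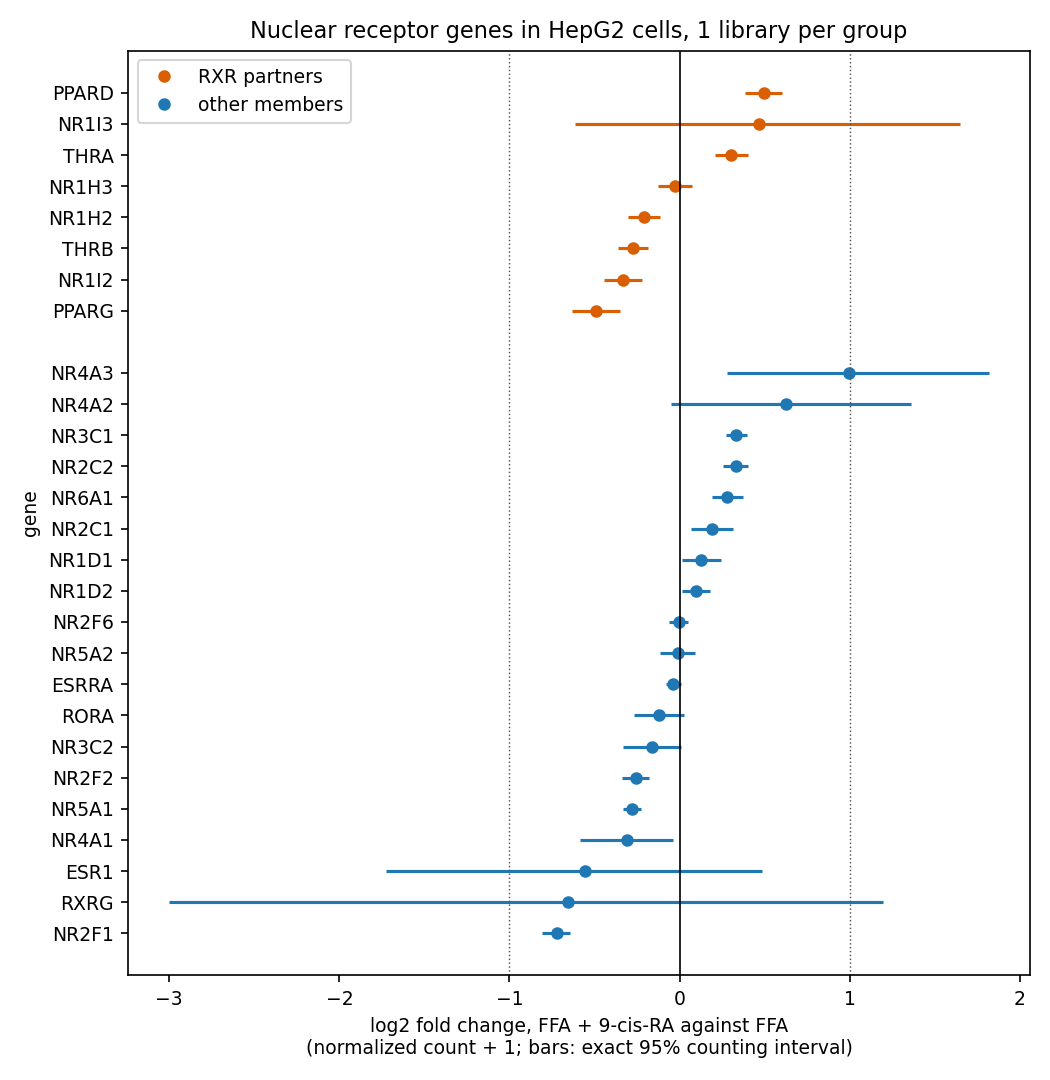
Log2 fold change of each compared nuclear receptor gene, FFA + 9-cis-RA against FFA, with exact 95% counting intervals and RXR partners set apart by color. All points lie between -0.72 and 1.00, and the widest intervals belong to genes with few counts such as RXRG and NR1I3.

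**Figure D2:**
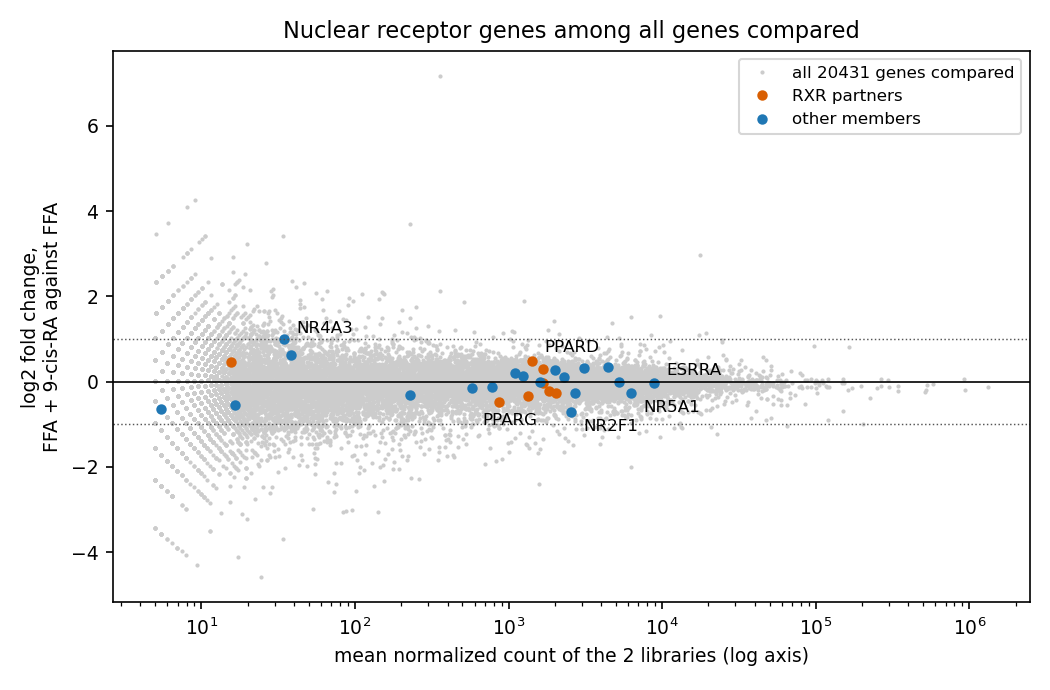
Log2 fold change of all 20431 compared genes against their mean level, with the 27 compared nuclear receptor genes marked. The median of the receptors, -0.026, is near that of all genes, -0.020, while their median absolute value is 0.28 beside 0.22.

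The 8 RXR partners of the set did not share a direction. Of the 8, 3 stood higher with 9-cis-RA and 5 stood lower, of which NR1H3 turned higher with total-count scaling, with a median log2 fold change of -0.12 and a range from -0.49 to 0.49. The partners' median was -0.070 with total-count scaling and -0.21 with at least 50 counts, which left out NR1I3. Their counting intervals lay above 0 for 2 (PPARD and THRA), below 0 for 4 (NR1H2, NR1I2, PPARG and THRB) and held 0 for 2 (NR1H3 and NR1I3). Among the 19 compared members outside this group, 8 were higher and 11 lower, of which NR2F6, NR5A2 and ESRRA were close to 0 and turned higher with total-count scaling. These 19 had a median of -0.012, or 0.037 with that scaling, and intervals above 0 for 7, below 0 for 4 and holding 0 for 8. The median absolute log2 fold change was 0.32 for the partners and 0.28 for the others. Of all 20431 genes compared, 9751 were higher and 10680 lower. The partners and the others were not tested against each other, since members are not replicates of a condition.

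The PPAR genes differed in opposite directions. PPARD, which encodes the broadly expressed PPARδ, an activator of fatty acid oxidation, had 1191 counts in FFA and 1646 in FFA + 9-cis-RA. Its level per length was 4.39 and 6.40 FPKM (fragments scaled to exon length and library total), and its log2 fold change was 0.49 (95% interval 0.39 to 0.60). PPARG, encoding the receptor that drives fat storage in adipocytes, had 1019 counts in FFA and 712 in FFA + 9-cis-RA, or 3.69 and 2.72 FPKM. Its log2 fold change was -0.49 (95% interval -0.63 to -0.35). PPARD made up 53.9% of the counts of both genes together in FFA (95% exact binomial interval 51.8 to 56.0) and 69.8% in FFA + 9-cis-RA (67.9 to 71.7). This share rests on counts within 1 library and needs no scaling between libraries. In FPKM the ratio of PPARD to PPARG was 1.19 in FFA and 2.36 in FFA + 9-cis-RA. PPARD lies on chromosome 6 from 35342558 to 35428191 on the plus strand, and PPARG on chromosome 3 from 12287368 to 12434356 on the plus strand (GRCh38). No other annotated gene overlaps the exons of either.

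The thyroid hormone receptors showed the same kind of split. THRA, the receptor gene that predominates in heart and bone, had 1512 counts in FFA and 1832 in FFA + 9-cis-RA, with 3.57 and 4.56 FPKM and a log2 fold change of 0.30 (95% interval 0.21 to 0.40). THRB, the main thyroid hormone receptor gene of liver, had 2255 and 1829 counts, 3.38 and 2.89 FPKM and a log2 fold change of -0.27 (95% interval -0.36 to -0.18). THRA was 40.1% of the pair's counts in FFA (38.6 to 41.7) and 50.04% in FFA + 9-cis-RA (48.4 to 51.7). THRA (chromosome 17, 40058290 to 40093867, plus strand) overlaps the minus-strand NR1D1 over 3.78% of its exonic bases. Counting used strand, so reads of the pair were separated by strand. THRB lies on chromosome 3 from 24117153 to 24495756 on the minus strand.

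The LXR genes, whose products sense oxysterols and switch on cholesterol efflux and lipogenesis, differed less. NR1H3, encoding LXRα, had 1693 and 1631 counts and a log2 fold change of -0.026 (95% interval -0.13 to 0.073). NR1H2, encoding LXRβ, had 1979 and 1677 counts and a log2 fold change of -0.21 (95% interval -0.31 to -0.12). NR1H3 had a share of 46.1% and 49.3% in the pair, and its binomial intervals overlapped. In level per length NR1H3 and NR1H2 had overlapping intervals in FFA, at 6.14 and 6.09 FPKM, and intervals that did not overlap in FFA + 9-cis-RA, at 6.24 and 5.44 FPKM.

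The xenobiotic receptors differed greatly in level. NR1I2, which encodes PXR, a sensor of drugs and bile acids, had 1508 and 1173 counts, 4.61 and 3.78 FPKM and a log2 fold change of -0.33 (95% interval -0.45 to -0.22). On its strand, 4.07% of its exonic sequence is shared with another annotated gene, and fragments there went uncounted. NR1I3, which encodes CAR, had 13 and 18 counts, and the interval of its log2 fold change of 0.47 ran from -0.61 to 1.65. CAR is abundant in adult hepatocytes, and at 0.0647 and 0.0944 FPKM its gene was scarcely read in these cells. It made up 0.855% and 1.51% of the counts of NR1I2 and NR1I3 together, and these intervals overlapped.

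Upstream sequences are shown for PPARG and PPARD, the pair that diverged in count, and for NR2F1, which had the lowest log2 fold change of all members. Each is the 250 bases before the first annotated start, read 5′ to 3′ on the plus strand from RefSeq for GRCh38.p14, and these starts coincide with the gene starts in the count tables. Capitals mark the hexamers AGGTCA and AGTTCA, core letters of many receptor binding elements, which were searched on both strands (TGACCT and TGAACT on the opposite strand). The windows are PPARG chr3:12287118-12287367, PPARD chr6:35342308-35342557 and NR2F1 chr5:93582972-93583221.
PPARG: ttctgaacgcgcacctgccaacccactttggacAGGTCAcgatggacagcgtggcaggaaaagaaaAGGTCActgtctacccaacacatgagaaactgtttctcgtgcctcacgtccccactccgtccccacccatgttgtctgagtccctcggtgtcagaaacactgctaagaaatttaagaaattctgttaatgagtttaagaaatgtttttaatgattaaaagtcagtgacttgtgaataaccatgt
PPARD: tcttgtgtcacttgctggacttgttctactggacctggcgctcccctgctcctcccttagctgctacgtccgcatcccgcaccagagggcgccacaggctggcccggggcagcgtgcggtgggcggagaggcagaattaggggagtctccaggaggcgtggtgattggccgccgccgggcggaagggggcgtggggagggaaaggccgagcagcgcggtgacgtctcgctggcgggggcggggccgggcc
NR2F1: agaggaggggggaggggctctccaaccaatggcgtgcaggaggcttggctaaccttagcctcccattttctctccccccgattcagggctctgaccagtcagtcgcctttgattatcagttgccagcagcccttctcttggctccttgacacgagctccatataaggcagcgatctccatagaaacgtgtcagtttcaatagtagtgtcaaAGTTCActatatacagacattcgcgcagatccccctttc
The PPARG window held AGGTCA 217 and 184 bases before the start, the NR2F1 window held AGTTCA 39 bases before it, and the PPARD window held neither. Windows of further PPARG starts, not shown, held AGGTCA 14 or 24 bases before them or AGTTCA 163 bases before, and others held neither. A further NR2F1 start had AGTTCA 148 bases before it. Over all members, 33 of 35 matched the table by symbol, with 79 annotated starts. AGGTCA was found in 12 of these 79 windows (15.2%), against 4242 of 35116 windows of all genes (12.1%), and AGTTCA in 9 (11.4%), against 3090 (8.8%). A match describes letters only and identifies no bound site.

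**Figure D3:**
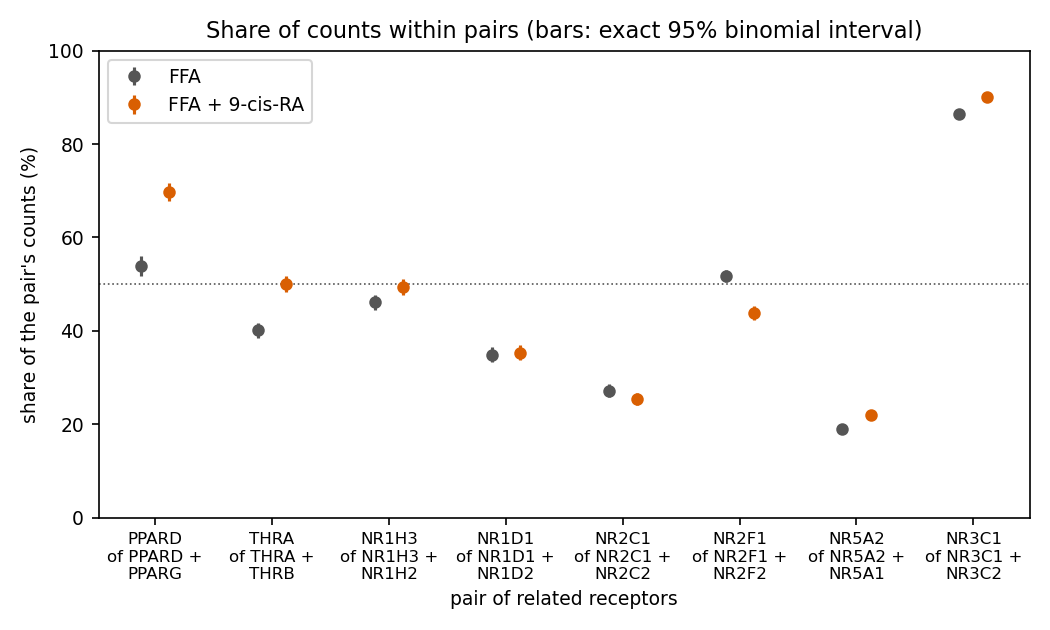
Share of a receptor pair's counts taken by its first-named gene for 8 pairs, in the FFA and FFA + 9-cis-RA libraries, with exact 95% binomial intervals. PPARD takes 53.9% of its pair in FFA and 69.8% with 9-cis-RA, THRA 40.1% and 50.04%, and NR2F1 51.8% and 43.8%.

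The COUP-TF genes include the member with the lowest log2 fold change. NR2F1, encoding COUP-TF1, a repressor that competes for receptor binding elements, had 3192 counts in FFA and 1896 in FFA + 9-cis-RA, with 12.2 and 7.62 FPKM. Its log2 fold change was -0.72 (95% interval -0.81 to -0.64). It lies on chromosome 5 from 93583222 to 93594611 on the plus strand, and the antisense gene NR2F1-AS1 covers 3.66% of its exonic bases on the other strand. NR2F2, encoding COUP-TF2, had 2969 and 2435 counts and a log2 fold change of -0.26 (95% interval -0.34 to -0.18). NR2F6 (EAR2), the most abundant of the 3 per length, had 5273 and 5156 counts. Its interval, from -0.060 to 0.051, held 0 around a log2 fold change of -0.0047. Another gene shares 8.26% of its exonic bases on its strand, which lowers its counts. NR2F1 was 51.8% of the NR2F1 and NR2F2 counts in FFA (50.6 to 53.1) and 43.8% in FFA + 9-cis-RA (42.3 to 45.3).

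TR2 and TR4, which bind direct repeats and repress several RXR-partner targets, both had more counts with 9-cis-RA. NR2C1, encoding TR2, had 1032 and 1156 counts and a log2 fold change of 0.19 (95% interval 0.069 to 0.31). NR2C2, encoding TR4, had 2768 and 3414 counts and a log2 fold change of 0.33 (95% interval 0.26 to 0.40). NR2C1 held 27.2% and 25.3% of the pair's counts, with overlapping intervals. NR6A1, which encodes germ cell nuclear factor, had 1825 and 2175 counts and a log2 fold change of 0.28 (95% interval 0.19 to 0.37).

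NR3C1, the glucocorticoid receptor gene, central to gluconeogenesis and stress responses, had 3937 and 4869 counts, 7.07 and 9.22 FPKM and a log2 fold change of 0.33 (95% interval 0.27 to 0.40). NR3C1 lies on chromosome 5 from 143277931 to 143435512 on the minus strand. NR3C2, the mineralocorticoid receptor gene, had 615 and 539 counts and a log2 fold change of -0.16, whose interval from -0.33 to 0.0065 held 0. NR3C1 took 86.5% of the pair's counts in FFA (85.5 to 87.5) and 90.0% in FFA + 9-cis-RA (89.2 to 90.8), and these intervals did not overlap. The estrogen receptor gene ESR1 had 20 and 13 counts, and the interval of its log2 fold change of -0.56 ran from -1.72 to 0.49.

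ESRRA, which encodes ERRα, a regulator of mitochondrial genes, was the most abundant member per length, at 48.4 and 48.8 FPKM, and exceeded 95.7% of compared genes in the FFA library. Its counts were 9066 and 8667, for a log2 fold change of -0.037, and the interval from -0.080 to 0.0053 held 0. The plus-strand gene on chromosome 11 (64305524 to 64316743) overlaps TRMT112 on the other strand over 9.23% of its exonic bases. NR5A1, encoding SF-1, a regulator of steroidogenesis best known from adrenal and gonad, came next in FFA at 33.4 FPKM. Its interval there overlapped that of NR2F6. In FFA + 9-cis-RA it had 28.4 FPKM, below NR2F6 at 33.4 FPKM. NR5A1 had 6924 and 5595 counts and a log2 fold change of -0.28 (95% interval -0.33 to -0.23). It lies on chromosome 9 from 124481236 to 124507420 on the minus strand. NR5A2, encoding LRH-1, the hepatic member that regulates bile acid synthesis, had 1611 and 1567 counts and a log2 fold change of -0.012 (95% interval -0.11 to 0.089). NR5A2 was 18.9% of the pair's counts in FFA (18.0 to 19.7) and 21.9% in FFA + 9-cis-RA (20.9 to 22.9). Of the 9 receptor pairs read in this way, 5 had shares whose intervals did not overlap between the libraries, those of PPARD, THRA, NR2F1, NR3C1 and NR5A2. The pairs were chosen after their values were seen, and no share over other gene pairs was computed. Among all single genes compared, the counting interval lay above 0 for 22.5% and below 0 for 25.7%.

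REV-ERB and ROR proteins repress and activate the same clock elements. NR1D1 (REV-ERBα) had 1190 and 1275 counts, with a log2 fold change of 0.13 (95% interval 0.012 to 0.24), and NR1D2 (REV-ERBβ) had 2223 and 2332 counts, with 0.097 (0.012 to 0.18). Both lower bounds lay close to 0. RORA had 817 and 737 counts, for a log2 fold change of -0.12 (95% interval -0.27 to 0.024). NR1D1 held 34.9% and 35.3% of the REV-ERB pair's counts, with overlapping intervals.

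The immediate early receptor genes of the NR4A group were scarce. NR4A1 (NUR77) had 254 and 201 counts and a log2 fold change of -0.31 (95% interval -0.58 to -0.037). NR4A2 (NURR1) had 30 and 46 counts and a log2 fold change of 0.63 (95% interval -0.050 to 1.36), and NR4A3 (NOR1) had 23 and 46 counts and 1.00 (95% interval 0.28 to 1.82). The interval of NR4A2 held 0 and that of NR4A3 did not. NR4A3 passed 1 with TMM scaling, with total-count scaling, with a pseudocount of 0.1 and after removal of a trend on expression level. RXRG, the RXR gene least expressed in liver, had 7 and 4 counts, and the interval of its log2 fold change of -0.65 ran from -3.00 to 1.20.

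The 8 members that could not be compared were NR0B1, RORB, NR2E3, ESRRG and PGR, each at 0 counts in both libraries, and ESRRB, NR2E1 and ESR2. At this depth 0 reads leave room for a level of at most 3 counts, which is 0.0493 CPM (counts scaled to library total) in FFA and 0.0520 CPM with 9-cis-RA, counting error only. ESRRB, encoding ERRβ, had 3 and 1 counts, and ESR2, encoding ERβ, had 0 and 3. NR2E1, encoding TLX of neural stem cells, had 0 counts in FFA and 9 in FFA + 9-cis-RA. That is 3.06-fold higher after scaling when FFA is set at 3 counts and the 9 counts are taken as exact. Counting error of the 9 is left out, so this ratio is no lower bound. Most genes at 0 counts are known from other tissues, such as PGR, the progesterone receptor gene, from the reproductive tract, NR2E3 from photoreceptors and NR0B1 (DAX1) from adrenal and gonad. RORB is known from brain and retina and ESRRG (ERRγ) from heart and muscle.

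**Figure D4:**
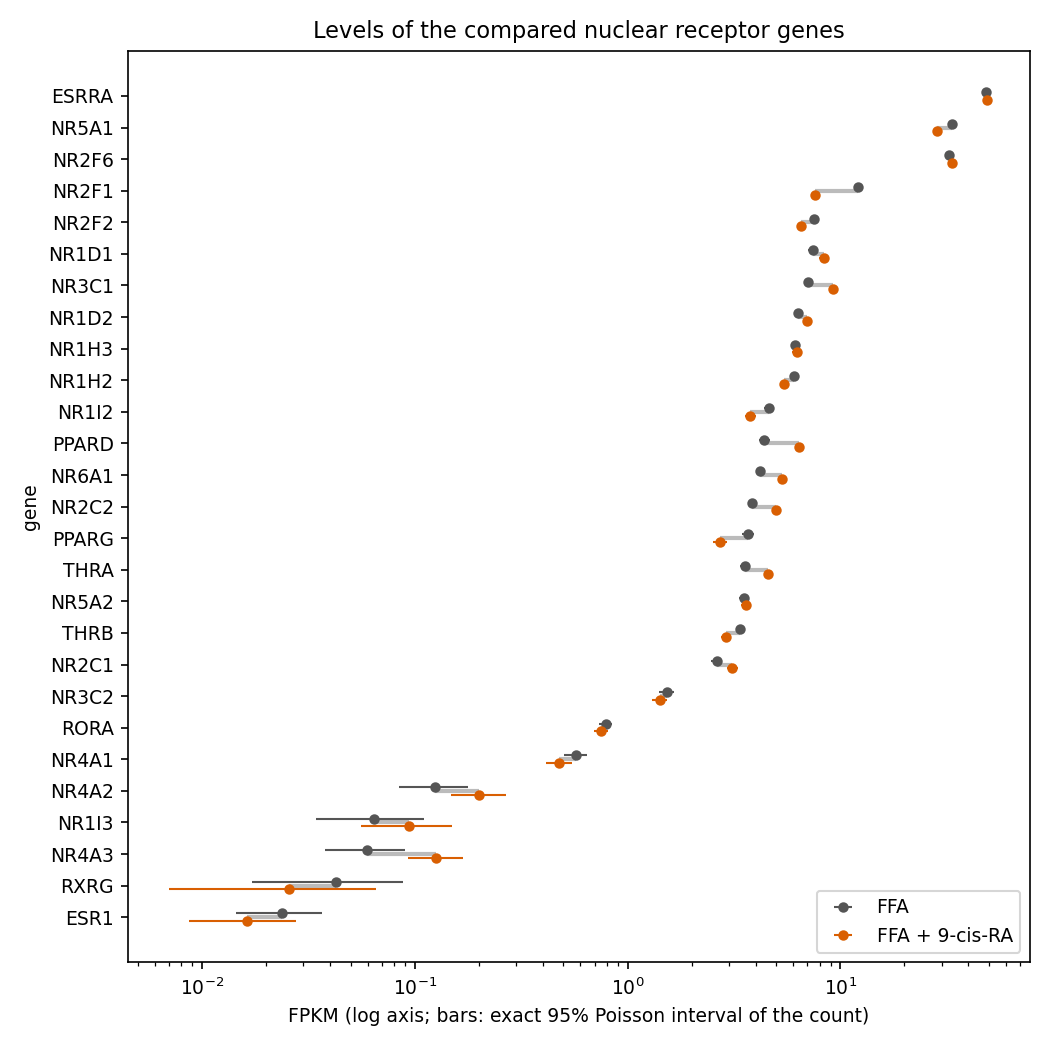
Level of each of the 27 compared nuclear receptor genes in FPKM on a log axis, in both libraries, with exact 95% Poisson intervals of the count. Levels run from 48.4 FPKM for ESRRA to 0.0237 FPKM for ESR1 in the FFA library, and ESRRA is highest in both libraries.

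In the FFA library the order of levels began with ESRRA, NR5A1 and NR2F6, followed by NR2F1, NR2F2 and NR1D1. Intervals of NR5A1 and NR2F6 overlapped, as did those of NR2F2 and NR1D1 and of NR1D1 and NR3C1, so these neighbors could not be ordered. NR1D2, NR1H3 and NR1H2 also overlapped as neighbors, as did NR1I2 with PPARD and PPARD with NR6A1. The run of NR2C2, PPARG, THRA, NR5A2 and THRB overlapped from each to the next. The same held at the bottom of the order for NR4A2, NR1I3, NR4A3, RXRG and ESR1. The compared members had a median level of 3.85 FPKM in FFA and 4.56 FPKM in FFA + 9-cis-RA, beside 2.25 and 2.27 FPKM for all genes compared.

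Genes known as targets of these receptors were summarized by list, although lists share genes (PCK1, PER1, CETP, PDK4, ANGPTL4, KLF9, G6PC1 and ACADM, for example) and many targets answer to several receptors. For comparison, 9751 of all 20431 genes compared were higher and 10680 lower, with 3.37% above 1 and 4.9% below -1. Of 15 PPAR targets, 14 were compared, with 6 higher and 8 lower, 2 above 1 and 2 below -1, and a median log2 fold change of -0.038, which turned to 0.011 with total-count scaling and 0.012 with the gene length trend removed. FABP1, a fatty acid binding protein gene, had 1349 and 2871 counts and a log2 fold change of 1.12. CPT1A, which encodes the enzyme that admits fatty acids to mitochondria, had 10528 and 14019 counts and 0.44. In the other direction, CD36, a fatty acid uptake receptor gene, had 346 and 94 counts and a log2 fold change of -1.84. Besides FABP1, PDK4, a gene for a pyruvate dehydrogenase kinase, was above 1 at 14 and 33 counts (1.21), and it was named after its value was seen, as were CETP, CYP3A4 and CYP7A1. The highest median belonged to the LXR targets, at 0.38, with 14 of 16 compared, 10 higher and 4 lower. This median ran from 0.19 with no count minimum to 0.58 among genes with at least 50 counts. The 2 above 1 were SREBF1, for the lipogenic factor SREBP-1 (3282 and 9232 counts, 1.52), and LPCAT3, a phospholipid remodelling gene (5403 and 11395 counts, 1.10). The 1 below -1 was CETP, at 16 and 7 counts (-1.06, interval -2.69 to 0.20). APOE had 30317 and 20524 counts and -0.54, and PLTP, a phospholipid transfer protein gene, had 1567 and 1087 counts and a log2 fold change of -0.50.

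The thyroid hormone receptor targets (6 of 9 compared) had 3 higher and 3 lower and a median of -0.12. That median ranged from -0.12 to 0.023 over the alternatives, the latter with no count minimum. Of these, PCK1, which encodes a gluconeogenic enzyme, had 40 and 138 counts and a log2 fold change of 1.79, and DIO1, a deiodinase gene that is a classical liver target, had 515 and 380 counts and -0.41. BCL3 had 1882 and 2017 counts (0.13), and SHBG, for a sex hormone carrier of plasma, had 271 and 221 (-0.27). PCK1 alone of these 6 passed 1. Among the PXR and CAR targets, 12 of 15 were compared, 2 were higher and 10 lower, with 1 above 1 and 2 below -1, and the median was -0.30. UGT1A1, for bilirubin glucuronidation, had 1086 and 2874 counts and a log2 fold change of 1.43, but 49.9% of its exonic sequence is shared with other UGT1A genes, and fragments there went uncounted. SULT2A1, a sulfotransferase gene, had 18439 and 8536 counts and a log2 fold change of -1.08, and GSTA2 had 1004 and 607 counts and -0.70. CYP3A4, the main drug-metabolizing P450 gene and a classical PXR target, had 19 and 3 counts (-2.30, interval -5.03 to -0.87). ALAS1, for the first step of heme synthesis, had 4104 and 4259 counts (0.081). All 13 REV-ERB and ROR targets and clock genes were compared, with 8 higher and 5 lower, none past 1 in either direction, and a median of 0.11. In this list PER1 had 1024 and 1522 counts and a log2 fold change of 0.60, while PER3 had 262 and 183 counts and -0.49. DBP, a clock output gene, had 194 and 269 counts (0.50), and NPAS2, a CLOCK paralog, had 4857 and 3672 (-0.38).

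Of the 15 glucocorticoid receptor targets, 13 were compared, with 7 higher and 6 lower, PCK1 above 1 and a median of 0.063 (0.16 with at least 50 counts and 0.027 with the gene length trend removed). DUSP1, a phosphatase gene, had 2060 and 3277 counts and a log2 fold change of 0.70, whereas TAT, a tyrosine-catabolism gene, had 259 and 151 counts and -0.75. CEBPD, for a C/EBP transcription factor, had 918 and 505 counts and -0.83. The 13 ERR targets had 8 higher and 5 lower and a median of 0.050 (0.099 with total-count scaling), with CS, the citrate synthase gene, at 27428 and 35809 counts (log2 fold change 0.41) and MDH2, for malate dehydrogenase, at 18101 and 16828 (-0.078). PDK4 was the ERR target above 1. NDUFA4, a respiratory chain gene, had 5530 and 6479 counts (0.26), and PPARGC1A, which encodes the ERR coactivator PGC-1α, had 852 and 700 (-0.26). The 7 LRH-1 targets had 3 higher and 4 lower, 2 below -1 and a median of -0.33. With at least 50 counts, which left out CYP7A1 and CETP, the median of the other 5 was 0.029. NR0B2, which encodes the corepressor SHP, had 5085 and 9244 counts and a log2 fold change of 0.89, and AFP, a fetal liver gene, had 273242 and 134862 counts and -0.99. The genes below -1 were CYP7A1, for the rate-limiting enzyme of bile acid synthesis, at 48 and 1 counts (-4.59, interval -10.89 to -3.01), and CETP. APOM had 537 and 541 counts (0.038) and CYP8B1, for cholic acid synthesis, 118 and 92 (-0.33). Lists of targets were not tested, and the median of all genes compared was -0.020.

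**Figure D5:**
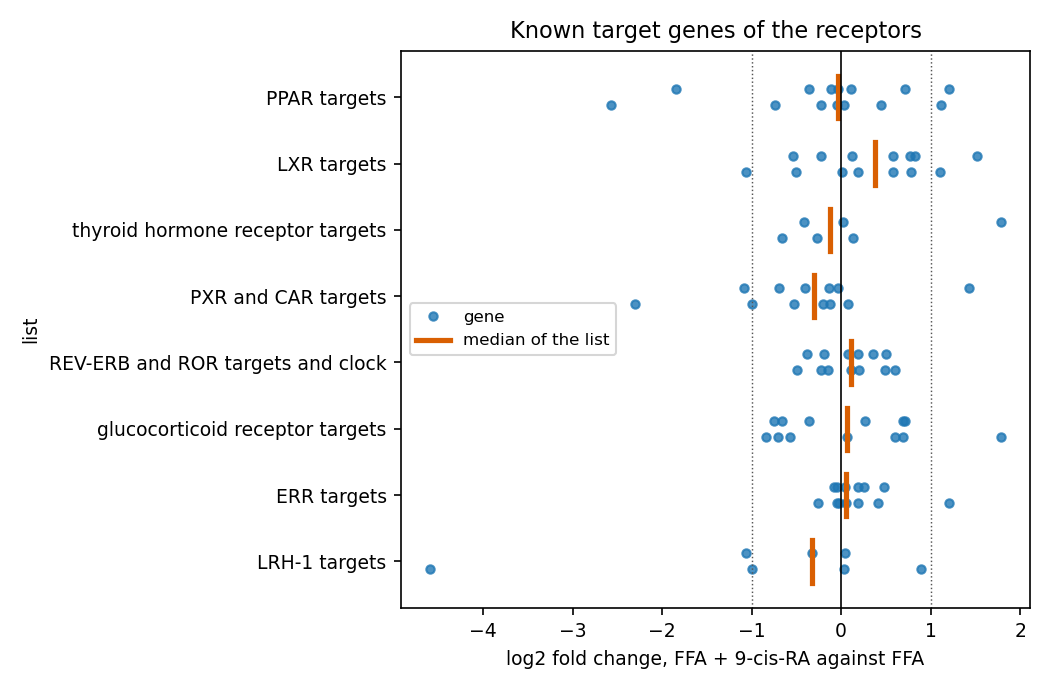
Log2 fold change, FFA + 9-cis-RA against FFA, of the compared genes of each list of receptor targets, with the list median marked. As computed with median-of-ratios scaling, the medians run from -0.33 for LRH-1 targets to 0.38 for LXR targets. Among genes with at least 50 counts the LRH-1 median is 0.029 and the lowest is that of PXR and CAR targets, at -0.27.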

How the data were processed

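Poly(A) RNA of HepG2 cells was sequenced as 2 libraries, 1 in each group. Unnormalized counts for every gene were deposited by the authors, who ran featureCounts 2.0.1 over exons of GRCh38 (strand setting 2), requiring both mates to map. Multi-mapping fragments and fragments shared by genes went uncounted, which lowers overlapping genes. The aligner and annotation release are not given in the sources used here. DESeq2 is named for the study's own comparison, which was not used.

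Size factors came from DESeq2 1.42.0 (TMM factors from edgeR 4.0.16) in R 4.3.3. Log2 fold changes used a pseudocount of 1 and genes whose counts summed to at least 10. Exact 95% Clopper-Pearson and Poisson intervals, with size factors taken as fixed, were computed in Python 3.11.15 with numpy 2.4.6, pandas 2.3.3 and scipy 1.17.1, trends (span 0.3) with statsmodels 0.14.6 and plots with matplotlib 3.10.9. The floor was 3 counts. FPKM used the exon length in the count tables and the library total. Both reflect counting error alone, and no model could be fitted to 2 libraries.

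The members and gene lists were chosen with earlier results of these data known. Every member is named. From each list the text names the 2 highest and 2 lowest log2 fold changes among genes that reach 100 normalized counts in either library. The value of 1 such gene is not reported here. The 9 receptor pairs and the sequences printed were chosen after their values were seen. Fold changes and their counting intervals were tested on counts simulated with counting error alone, so the test holds no difference between cultures or libraries. The trend removal was tested on a simulated trend, and the binomial bounds against known values. The other steps were not tested in this way. Results were recomputed with pseudocounts of 0.1 and 5, with TMM or total-count scaling, with no count minimum or 50 counts, and with removal of trends on expression level or gene length. Levels were recomputed only with a library total scaled by size factors.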

Additional observations from a re-analysis of the deposited data

How the results depend on the processing

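No paired analysis was possible because each group has 1 library. Of 213 alternative log2 fold changes of members, 210 stayed within their counting interval and 3 (ESRRA with total-count scaling, ESRRA and NR2F6 with the gene length trend removed) did not. All 54 alternative levels stayed within theirs, but these only replaced the library total by a total scaled by size factors. That moves all genes of a library by the same small factor (THRA in FFA from 3.57 to 3.63 FPKM), so it was a weak check. The 213 include the runs with no count minimum and with at least 50 counts. Those runs only change which genes are kept, so they could not move a gene's value or direction. Of 96 alternative list medians, 90 stayed between the median lower bound and the median upper bound of the list's genes. These bounds are no interval of the median itself, and for thyroid hormone receptor targets they ran from -0.57 to 0.71. The 17 members whose interval left out 0 had 1 direction under every alternative run, whereas NR1H3, NR2F6, ESRRA and NR5A2, all near 0, changed sign under at least 1. The median of all genes shifted by at most 0.049, with total-count scaling. Members above 1 numbered 0, but 1 with TMM scaling, total-count scaling, a pseudocount of 0.1 or the expression trend removed, and 2 with no count minimum (NR2E1 and ESR2, at 0 counts in FFA). Members above 0.5 numbered 2, but 4 with total-count scaling, no count minimum or the gene length trend removed. Members below -0.5 numbered 3, but 1 with a pseudocount of 5 or at least 50 counts. The LXR target median of 0.38 became 0.43 with total-count scaling, 0.19 with no count minimum, 0.58 with at least 50 counts and 0.42 with the expression trend removed. The ERR target median of 0.050 became 0.099 with total-count scaling and 0.10 with the expression trend removed. Beyond the counts and scalings named, the cause of these moves was not tested. Depth limits RXRG, NR1I3, ESR1, NR4A2 and NR4A3, whose intervals span more than 1 on the log2 scale.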

Other observations

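Receptors outside the set were read beside it. Of 13 other members of the superfamily, 12 were compared, with 7 higher and 5 lower and a median log2 fold change of 0.079. Of all 20431 genes compared, 9751 were higher and 10680 lower. NR1H4, which encodes the bile acid receptor FXR, had 2305 and 1260 counts and a log2 fold change of -0.84, and RXRA had 8291 and 5978 counts and -0.44. RARG had 114 and 138 counts, and the interval of its log2 fold change of 0.30 held 0. The gene above 1 in this list was RARB, a retinoic acid target itself, with 6 and 46 counts and a log2 fold change of 2.77. It was named after its values were seen.

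All 13 receptor coregulators were compared. Of these, 9 were higher and 4 lower in FFA + 9-cis-RA, none passed 1 in either direction, and the median log2 fold change was 0.099. All genes compared had 9751 higher and 10680 lower. NCOA1, a p160 coactivator gene, had 2373 and 3106 counts and a log2 fold change of 0.42, and CREBBP, which encodes an acetyltransferase coactivator, had 3934 and 4954 counts and 0.36. PPARGC1A, the PGC-1α gene, had 852 and 700 counts and -0.26, and TBL1XR1, a gene of the NCoR corepressor complex, had 4728 and 4048 counts and -0.20.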
